A study of Mus musculus with 12 samples.

Results

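The hairpins described here are 131 mouse miRNA precursors with numbers of 5000 or above in miRBase, the public registry that numbers miRNAs in the order of their entry. They were chosen by their read counts: a hairpin of that number range, outside mir-7210 to mir-7243, was taken if 2 or more of 12 small RNA libraries held 10 or more of its reads. Of 1050 hairpins with any read, 361 lay in the number range, and 131 of these passed the read minimum. The read minimum used the same counts that are reported below, so the levels that let a hairpin pass are a description. The hairpins just inside the minimum were mir-7084, mir-7674, mir-6994, mir-6988 and mir-6899, whose second-highest library held 10 reads, and those just outside were mir-8120, mir-8092, mir-7653, mir-7664 and mir-6922, whose second-highest library held 9.

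The libraries came from sperm of the epididymis of C57BL6/J mice and from TM4, a mouse testis line labelled as Sertoli cells, the cells that nurse germ cells. Mice were put at 4 weeks of age on a control diet (CD, 16% of kcal from fat) or a high-fat diet (HFD, 69% of kcal by the labels and a lower value by the methods) for 7 weeks. A figure caption of the study gives a later age at the start of the diets. There were 3 libraries per diet, each a pool of 3 sperm samples. TM4 cells were non-treated (Ctrl), given 10 µM compound C (CC), an inhibitor of the energy sensor AMPK, for 12 h, or made to overexpress angiogenin, a ribonuclease that cleaves tRNAs, from a plasmid with its coding sequence (Ang OE), with 2 libraries per group. The question behind the groups is how diet, AMPK inhibition and angiogenin alter small RNAs of the male germline. The promoter of the plasmid is not described here, and nothing says whether the TM4 libraries came from separate cultures, so p-values measure only the spread between these libraries, which may be technical.

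Most miRNAs are cut from long transcripts by the nuclease Drosha and then by Dicer, and the mature strand finds its targets mainly through its seed, bases 2 to 8. A mirtron takes another path: the spliced intron itself folds into the hairpin, so that the splicing machinery replaces Drosha at 1 or both ends. Many hairpins with high numbers were found late, by deep sequencing, since they are rare, and many of them are mirtrons.

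The annotated sequences of several of the most abundant hairpins, and of hairpins that stood highest in one source, are given here from RefSeq (GRCm38.p6), with the seed in capitals. The counts cover whole hairpins and do not say which arm was sequenced.
miR-8112: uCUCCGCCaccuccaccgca
miR-8114: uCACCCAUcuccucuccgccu
miR-5121: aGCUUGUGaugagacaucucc
miR-5098: gUUACAUGgugaagcccaguu
miR-5114: aCUGGAGAcggaagcugcaaga
miR-6516-5p: uUUGCAGUaacagguguggaca
miR-6516-3p: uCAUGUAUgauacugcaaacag
miR-7655-5p: cGGCCCACggagcuccuaaaga
miR-7655-3p: uUUAUGACgcuccgugggccug
miR-6240: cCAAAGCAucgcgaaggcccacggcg
miR-8094: aACUGAAGgacaacgagaaga
miR-8111: aCCGGGCAugguaguguacac
miR-7685-5p: aCCUUCCGguuucuucaagucucc
miR-7019-3p: uCACCUUGgccgccucucugcag
miR-7081-5p: aGAGGAGGgugcucggccggggauua

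Of the 131 hairpins, 119 had an entry in the RefSeq table and 12 did not, namely mir-5107, mir-6395, mir-6539, mir-6952, mir-6967-1, mir-6967-2, mir-6970, mir-7036a, mir-7064, mir-7650, mir-7666 and mir-9769. The entries held 202 mature sequences of 18 to 26 nt, with a median GC content of 57.1% and a range of 28.6% to 87.0%. The highest was that of miR-5131. There were 195 different seeds, so most of these sequences shared their seed with no other member. In 7 cases a seed occurred in 2 members, among them CACCCUG in miR-7018-3p and miR-7068-3p and AGGAUGA in miR-6960-5p and miR-7093-5p. A few seeds were those of well-known families. miR-6389 carries the seed of miR-130 and miR-301, and miR-6413 that of miR-24-3p.
miR-7068-3p: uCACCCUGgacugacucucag
miR-7018-3p: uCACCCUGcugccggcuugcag
miR-6413: uGGCUCAGaagagcagguagu

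The hairpins lay inside genes of their own strand far more often than outside them. Of the 119 placed in the GRCm39 annotation, 67 (56.3%) had an end within 5 bases of a splice site on their own strand and are called mirtron-like here, 18 lay elsewhere in an intron, 25 overlapped an exon and 9 lay outside genes. All classes count only genes on the strand of the hairpin and leave out small RNA genes. A hairpin outside genes can thus lie opposite a gene on the other strand. Of 376 other placed hairpins that met the same minimum, 15 (3.99%) were mirtron-like. The mirtron-like members were 6 with both ends within 5 bases of the ends of an intron, 58 whose 3′ end alone met the intron's end, and 3 whose 5′ end alone met its start, and they sat in 67 different genes. Of the 54 hairpins of the 3′-end kind with a sequence, 53 ended in AG, the last bases of nearly all introns. The range from mir-6896 to mir-7199 held 64 of the 67, and these were 95.5% of the placed members in that range.

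A whole-intron member can be shown in full. The capitals mark both annotated arms, and each hairpin opens with GUGAG and closes with CAG, the ends of its intron.
mir-6944: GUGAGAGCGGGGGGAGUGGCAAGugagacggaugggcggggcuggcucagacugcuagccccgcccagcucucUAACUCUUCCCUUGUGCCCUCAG
mir-7068: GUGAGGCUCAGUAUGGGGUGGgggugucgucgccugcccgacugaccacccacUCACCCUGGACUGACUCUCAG
mir-6944 is the 96-base intron of Dbn1, the gene of the actin-binding protein drebrin, at chr13:55625494-55625589 on the minus strand of GRCm39. mir-7068 is the 74-base intron of Cherp at chr8:73223860-73223933, also on the minus strand. Introns with a mirtron-like member ranged from 66 to 36266 bases in length, with a median of 389.

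**Figure D1:**
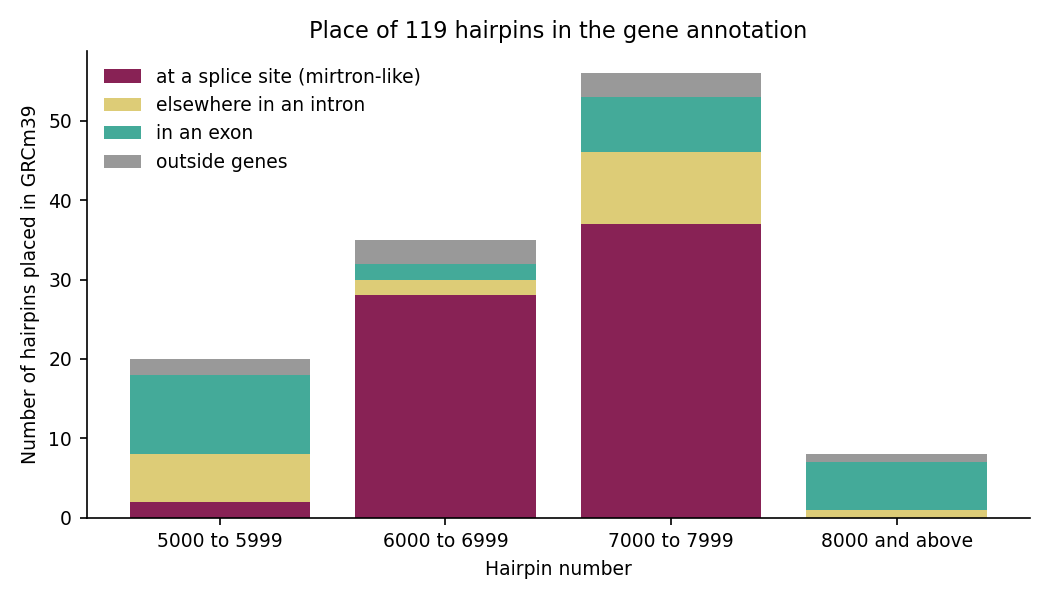
Number of hairpins (vertical axis) by their number in the registry (horizontal axis), stacked by place in the GRCm39 gene annotation. Mirtron-like hairpins make up 28 of 35 in the 6000s and 37 of 56 in the 7000s, but 2 of 20 in the 5000s and 0 of 8 from 8000 on, where exons hold 6.

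Exonic members were of another kind. Of the 25, 10 overlapped a coding exon, 10 a 5′ UTR, 1 a 3′ UTR and 4 an exon of a non-coding transcript. Several of the most abundant hairpins were among them. mir-8112 lay in the 5′ UTR of Krcc1 (chr6:71248655-71248785, plus strand) and mir-8114 in that of Glul, the gene of glutamine synthetase (chr1:153775672-153775782, plus). mir-5114 overlapped a coding exon of Scd2, a stearoyl-CoA desaturase (chr19:44291610-44291670, plus). 2 members overlapped an annotated small RNA: mir-5121 sat in an intron of the ribosomal protein gene Rpl13a (chr7:44776342-44776415, minus) over the snoRNA Snord33, and mir-6516 in the host transcript Snhg20 (chr11:116968174-116968283, plus) over the RNA gene Gm55431. Reads of the hairpin and of the overlapping RNA were not told apart in the counts.

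Libraries of sperm held 11412945 to 14822686 miRNA reads and those of TM4 27651384 to 35704399. Levels are given as CPM, the counts of a library scaled to 1000000 miRNA reads, so that 1 read is worth more in sperm. MicroRNAs known from epithelium summed to between 8946 and 14327 CPM in sperm and 1.28 to 2.38 in TM4, those of white blood cells to 580 to 1422 and 2.23 to 4.30, those of red blood cells to 25239 to 50595 and 1762 to 2857, and the smooth muscle pair of mir-143 and mir-145a to 30612 to 56120 and 49714 to 129039. Those of germ cells reached 3690 to 10815 CPM in sperm, highest in CD replicate 2, and 934 to 2045 in TM4. The Sertoli cell marker mir-202 was at 4.86 to 59.8 CPM in sperm and at 0 to 0.178 in TM4, so the labelled cell type was not borne out by that marker. Fewer cells of a type and less RNA per cell cannot be told apart in these libraries, and the part of other cells in the values below was not tested. Angiogenin mRNA is not measured by small RNA libraries, so the overexpression was not checked.

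The members were rare. Their median level, taken as the mean of the 5 group means, was 0.417 CPM, 28 reached 1 CPM and 6 reached 10 CPM. Total reads over the 12 libraries ran from 41 to 59276, with a median of 118, and the 5 most abundant hairpins took 71.9% of all members' reads. All reads of all members matched the genome, and 7 members (5.34%) had reads divided with other small RNAs, against 44% of the other hairpins that met the read minimum. The minimum was met in at least 2 TM4 libraries by 123 members and in at least 2 sperm libraries by 29, with 21 in both, and the deeper TM4 libraries met it at lower CPM. mir-5107, mir-7019 and mir-7685 had 0 reads in all 6 TM4 libraries and are named because they did.

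Summed over the members, the level was 117, 171 and 116 CPM in CD sperm and 150, 121 and 161 CPM in HFD sperm. In TM4 it was 568 and 551 CPM without treatment, 766 and 773 under CC and 334 and 368 with Ang OE. The diets overlapped, and the 3 TM4 groups stood apart from each other and from sperm. CD replicate 2, the highest sperm library, was also the highest in germ cell miRNAs. A single hairpin carried much of the spread in TM4: for Ctrl, CC and Ang OE the means were 560 ± 12.4, 770 ± 4.67 and 351 ± 24.1 CPM (SD, n = 2 each), and without mir-6539 they were 256 ± 6.63, 282 ± 13.5 and 178 ± 2.84. In sperm it made little difference, with 135 ± 31.1 CPM in CD and 144 ± 20.4 in HFD for all members (SD, n = 3 each) and 133 and 143 without mir-6539.

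**Figure D2:**
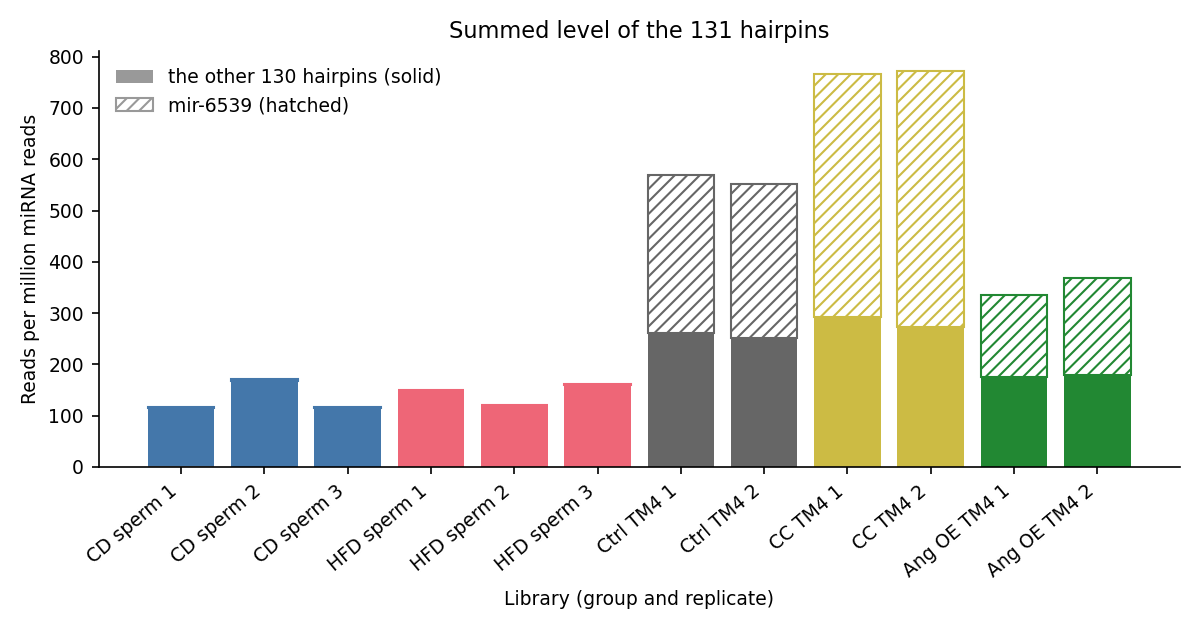
Summed level of the 131 hairpins in CPM (vertical axis) in each of 12 libraries (horizontal axis, coloured by group), with mir-6539 hatched and the others solid. Sperm libraries lie between 116 and 171, CC libraries are highest at 766 and 773, and mir-6539 is visible in TM4 alone.

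The number ranges divided the sum differently in the 2 sources. Hairpins of the 5000s made up 38.5% to 44.7% of the members' reads in sperm and 7.55% to 12.8% in TM4. Those of the 6000s made up 11.9% to 14.7% in sperm and 61.1% to 72.1% in TM4, where mir-6539 counts among them. Hairpins from 8000 on held 28.7% to 34.2% in sperm and 12.9% to 15.5% in TM4, and the 60 hairpins of the 7000s held 11.8% to 16.4% and 7.09% to 12.7%. As shares, sperm and TM4 did not overlap in the first 3 of these and overlapped in the 7000s. The TM4 shares depend on mir-6539, which alone took 47.5% to 64.7% of the members' reads there. By level, the 5000s overlapped, at 44.9 to 75.7 CPM in sperm and 35.8 to 72.6 in TM4. Hairpins from 8000 on were lower in sperm (33.7 to 51.3 CPM) than in TM4 (51.8 to 106). So were those of the 7000s (14.3 to 22.5 and 42.6 to 60.8) and of the 6000s (15.8 to 23.5 and 204 to 557).

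mir-6539 was the most abundant member. It stood at 308 and 300 CPM in Ctrl, rising to 475 and 500 under CC and falling to 159 and 189 with Ang OE. In sperm it was at 1.22, 3.07 and 0.976 CPM in CD and 0.574, 0.727 and 0.675 in HFD, which is 8 to 35 reads. It thus ranked 1 of the members in all 3 TM4 groups, 14 in CD sperm and 24 in HFD sperm. mir-8112 followed in TM4, at 48.4 and 51.8 CPM in Ctrl, 68.6 and 65.8 under CC and 34.0 and 38.2 with Ang OE, and at 1.70 to 2.58 CPM over the 6 sperm libraries.

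mir-8114, from the Glul transcript, was the leading member in sperm and among the first 5 in TM4. Its levels were 23.7, 38.6 and 28.1 CPM in CD, 39.1, 33.5 and 41.5 in HFD, 19.6 and 23.1 in Ctrl, 30.4 and 25.0 under CC and 11.4 and 12.7 with Ang OE. mir-5121 and mir-5098, the latter in an intron of Rest, the gene of a repressor of neuronal genes (chr5:77420604-77420685, plus), came next in sperm. mir-5121 was at 19.7, 24.2 and 17.0 CPM in CD and 23.0, 21.9 and 32.7 in HFD, and mir-5098 at 14.6, 30.1 and 15.6 and at 18.0, 14.8 and 24.1. In CD the means of mir-5121 (20.3 ± 3.64) and mir-5098 (20.1 ± 8.67, SD, n = 3 each) were closer than their spread, and both overlapped the range of mir-8114. mir-5099, outside genes at chr12:36866204-36866277, came after these in sperm with 4.66 to 9.11 CPM, and it varied within Ctrl, where its 2 libraries were at 27.8 and 11.3 CPM.

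**Figure D3:**
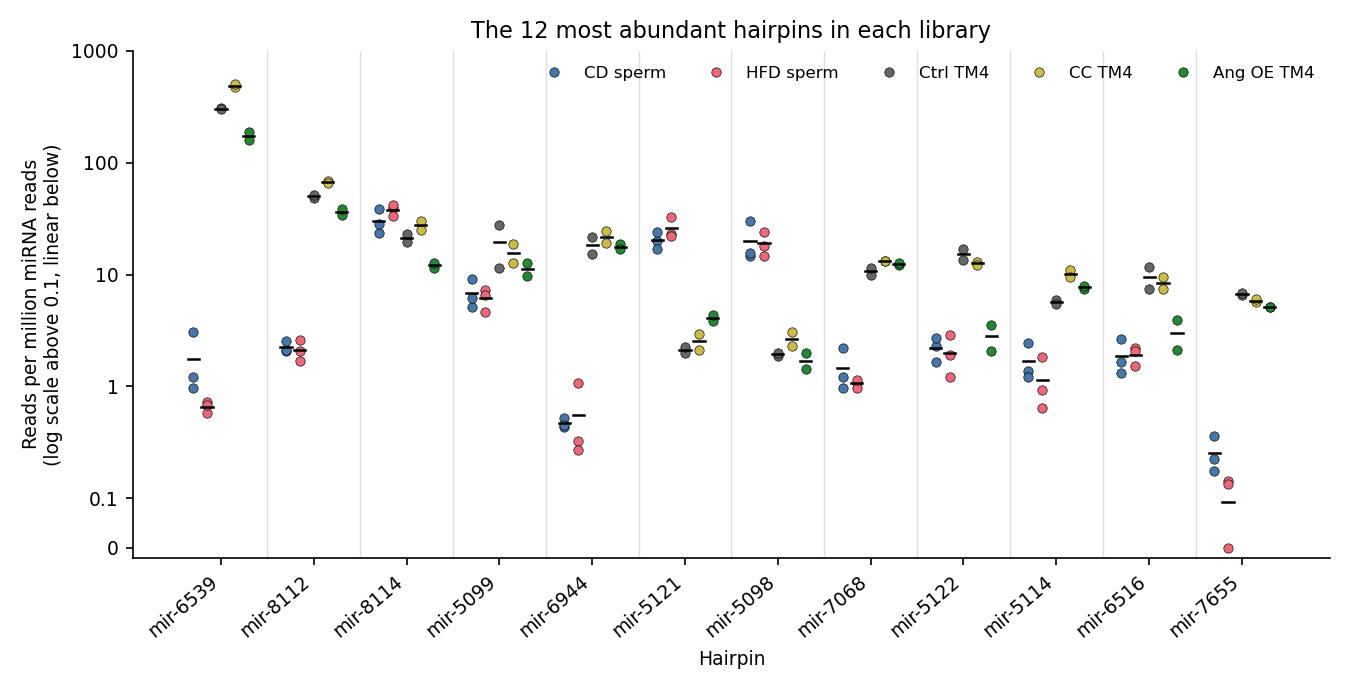
Level of the 12 most abundant hairpins in CPM (vertical axis, log scale above 0.1 and linear below), with 1 point per library, coloured by group, and a bar at each group mean. mir-6539, mir-8112 and mir-6944 are low in sperm and high in TM4, mir-5121 and mir-5098 the reverse, and mir-8114 is high in both.

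Of the mirtron-like hairpins mir-5121, mir-6944 and mir-7068 were among the 12 most abundant members. mir-6944 was at 15.3 and 21.7 CPM in Ctrl, 24.3 and 19.1 under CC and 18.6 and 16.9 with Ang OE, against 0.270 to 1.08 CPM in sperm. mir-7068 was at 9.94 and 11.5, at 13.3 and 13.3 and at 12.2 and 12.7 CPM in the same groups, against 0.964 to 2.22 in sperm. As a class the mirtron-like hairpins had median levels of 0.126 CPM in CD, 0.123 in HFD, and 0.553, 0.552 and 0.394 in the TM4 groups Ctrl, CC and Ang OE. The medians of the 9 hairpins outside genes went the other way, at 1.5 and 1.47 CPM in CD and HFD sperm and 0.194, 0.153 and 0.0860 CPM in those TM4 groups. mir-5099 and mir-5627 among them were higher in Ctrl than in CD sperm. The read minimum was met in sperm by 7 of the 9 outside genes and by 9 of the 67 mirtron-like hairpins, and in TM4 by 4 and 66. These medians thus largely follow the source that let each hairpin pass, so the contrast of the classes is a description.

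The first comparison asked whether the high-fat diet altered these hairpins in sperm. None of the 25 members that could be tested was called between HFD and CD (edgeR quasi-likelihood test, adjusted p under 0.05 over 449 hairpins), where 0% of all hairpins tested were called. Fold changes in this and the later comparisons are on the scale of TMM, a normalization that sets most hairpins level between libraries, and can differ from the ratio of the CPM printed beside them. 1 member, mir-6539, had an unadjusted p under 0.05, and 31 of all hairpins did. DESeq2 called 0 members, 1 hairpin higher and 11 lower. The members' median log2 fold change was −0.09, against −0.01 over all hairpins, and none of the number ranges or places held a called member.

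mir-6539 had the smallest p of the members between the diets. Its 3 HFD libraries, at 8, 9 and 10 reads, all lay below its CD libraries, at 17, 35 and 13 reads. It met the sperm minimum of 10 reads in 3 libraries only because of its CD libraries, so its log2 fold change of −1.46 ± 0.44 (SE, n = 3 per diet), and −0.93 without CD replicate 2, is a description. The summed white blood cell miRNAs also stood apart between the diets, at 580 to 676 CPM in CD and 780 to 1422 in HFD. Of the 3 markers in that sum mir-142a alone did not overlap (484 to 575 and 688 to 1179), mir-223 (28.2 to 32.6 and 29.7 to 40.6) and mir-150 (67.9 to 93.5 and 62.1 to 202) did, and their part in this difference was not tested. mir-7059, at the 3′ end of an intron of Cln3, had 6, 8 and 13 reads in CD and 20, 14 and 17 in HFD. It met the minimum only because of HFD, and its log2 fold change of 0.70 ± 0.36 is likewise a description. mir-5114 had 19, 28 and 16 reads in CD and 13, 8 and 27 in HFD, and its diets overlapped (−0.63 ± 0.40, edgeR adjusted p = 0.985). For the leading hairpins the intervals of the log2 fold change were −0.15 to 0.63 for mir-8114, −0.18 to 0.67 for mir-5121 and −0.71 to 0.37 for mir-5098. A doubling of these 3 in HFD sperm lay outside those intervals.

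The second comparison took TM4 cells under AMPK inhibition. The study's methods describe a batch adjustment of the cell line data for differences in sample preparation, without naming the batches, so the TM4 values here are not adjusted and the part of such batches was not tested. Few hairpins changed under CC: 2 of 123 tested members (1.63%) were higher than in Ctrl and 0 were lower, where 4.13% of the 533 hairpins tested were called, 2.25% higher and 1.88% lower. The 22 calls behind that share fell to 5 without CC replicate 1, 7 without CC replicate 2 and 9 without Ctrl replicate 1. The 2 members were mir-6539 and mir-5114. The members' median log2 fold change was 0.10, against −0.03 over all hairpins. Of the members, 16 had an unadjusted p under 0.05, and of all hairpins 94 did. DESeq2 called 3 members, all higher, and 28 of all hairpins, 18 higher and 10 lower, but gave no adjusted p for 97 of the 123 members. Summed miRNAs of red blood cells, at 1879 to 1956 CPM in CC, and of white blood cells, at 3.00 to 3.09, lay below both Ctrl libraries (2737 to 2857 and 3.81 to 4.30). The red blood cell sum was nearly all mir-486a and mir-486b, while mir-451a and mir-144 were under 1 CPM in all 4 libraries and overlapped, as did mir-142a of the white blood cell list. The part of such cells in these values was not tested.

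mir-6539 rose by 1.61-fold in CC. Its level went from 308 and 300 CPM to 475 and 500, with no overlap, a log2 fold change of 0.69 ± 0.12 (SE, n = 2 per group) and edgeR adjusted p = 0.00379. mir-5114, in the coding exon of Scd2, rose by 1.80-fold, from 5.90 and 5.49 CPM to 11 and 9.40 (log2 fold change 0.85 ± 0.16, adjusted p = 0.00432). Without CC replicate 1 mir-6539 alone was called and mir-5114 had an adjusted p of 0.0683, and without Ctrl replicate 2 there were 4 calls, 3 higher and 1 lower. mir-8112 in CC, at 68.6 and 65.8 CPM, lay above both Ctrl libraries, at 48.4 and 51.8, but did not pass (0.43 ± 0.13, adjusted p = 0.0862). None of the 66 mirtron-like members tested was called.

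The third comparison set Ang OE against the same Ctrl libraries, so its values share their controls with those of CC. No group is labelled as cells given an empty plasmid, so the plasmid and angiogenin cannot be told apart in this contrast. Ang OE came with more calls among all hairpins: 38.3% of 533 were called, 24.2% higher and 14.1% lower. Of the 123 members tested, 16 (13%) were called, 5 higher and 11 lower. The higher ones were mir-5121, mir-5114, mir-7068, mir-7675 and mir-7680, of which mir-7675 met the read minimum only because of Ang OE and mir-7680 only because of CC and Ang OE, so their calls support nothing. DESeq2 called 10 members, 3 higher and 7 lower, and gave no adjusted p for 81 of the 123. The members' median log2 fold change was −0.25 and that of all hairpins 0.06. Scaled by total miRNA reads in place of TMM, these medians were −0.53 and −0.21, the members' calls 4 higher and 21 lower, and the calls over all hairpins moved from 129 higher and 75 lower to 81 and 139. Some marker sums of other cell types also differed between these libraries, most of them carried by a part of their list. The smooth muscle pair was at 49714 to 55567 CPM in Ctrl and 94556 to 129039 in Ang OE, nearly all of it mir-143, while mir-145a overlapped (1171 to 1213 and 1196 to 1404). Germ cell miRNAs summed to 1017 to 1050 and 1932 to 2045 CPM, most of it mir-34c. Of the 9 germ cell markers, mir-741, mir-871, mir-880, mir-881, mir-470 and mir-463 were at 0 to 0.593 CPM in both groups. Those of red blood cells were at 2737 to 2857 and 1762 to 1784, nearly all of it mir-486a and mir-486b, while mir-451a and mir-144 stayed under 1 CPM and overlapped. Those of white blood cells were at 3.81 to 4.30 and 2.23 to 2.82 CPM, with all 3 markers lower in Ang OE. The part of these markers' cells in the CPM of the members was not tested.

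The fall of mir-5122 had the smallest adjusted p among the members. It went from 17.0 and 13.5 CPM in Ctrl to 2.07 and 3.53 in Ang OE, a 4.46-fold difference on the TMM scale (log2 fold change −2.16 ± 0.21, SE, n = 2 per group, edgeR adjusted p = 8.93e-07, and −2.44 when scaled by total miRNA reads), and the CC libraries were at 12.8 and 12.3. mir-6516, in the exon of Snhg20, fell from 11.6 and 7.48 CPM to 3.90 and 2.14 (−1.38 ± 0.25, adjusted p = 0.00029). mir-5131, in a coding exon of Ddhd1, fell from 2.34 and 1.34 CPM to 0.649 and 0.386 (−1.54 ± 0.42, adjusted p = 0.00776), a call lost without Ctrl replicate 1 or Ang OE replicate 2. None of these 3 overlapped between the groups.

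2 intronic hairpins, mir-8103 in Osbpl7 and mir-7669 in Ubap2l, fell as well. mir-8103 went from 2.34 and 3.31 CPM to 1.17 and 0.979 (−1.13 ± 0.28, edgeR adjusted p = 0.00446), and the call was lost without Ctrl replicate 2. mir-7669 went from 35 and 35 reads to 14 and 12 (−1.21 ± 0.45, adjusted p = 0.0452), and the call was lost with DESeq2 and without any one of the 4 libraries. mir-6539 and mir-8114 fell by less. mir-6539 went from 308 and 300 CPM to 159 and 189 (−0.53 ± 0.12, adjusted p = 0.00197), the opposite direction to its value in CC. mir-8114 went from 19.6 and 23.1 CPM to 11.4 and 12.7 (−0.55 ± 0.16, adjusted p = 0.0113), and was not called without Ctrl replicate 2 or Ang OE replicate 1.

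Of the members that rose, mir-5121 had the smallest adjusted p. It was at 1.99 and 2.24 CPM in Ctrl and 3.87 and 4.33 in Ang OE, a 2.33-fold rise on the TMM scale (1.22 ± 0.21, edgeR adjusted p = 0.000249, and a log2 fold change of 0.95 when scaled by total miRNA reads). mir-5114 rose to 7.48 and 7.83 CPM from 5.90 and 5.49 (0.70 ± 0.16, adjusted p = 0.0023). The whole-intron hairpin mir-7068 rose from 9.94 and 11.5 CPM to 12.2 and 12.7 (0.49 ± 0.15, adjusted p = 0.0162), but its adjusted p was 0.284 when scaled by total miRNA reads (log2 fold change 0.21), and it was not called without Ctrl replicate 1 or Ang OE replicate 2. mir-7675 and mir-7680 had few reads, 2 and 9 in Ctrl and 21 and 21 in Ang OE for mir-7675, and 7 and 5 against 14 and 29 for mir-7680. The other whole-intron hairpin of the 12, mir-6944, was not called, with an interval of −0.14 to 0.55 on the log2 scale.

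By place, the calls in Ang OE were 1 higher and 5 lower of 25 exonic members, 2 and 3 of 18 intronic, 2 and 2 of 66 mirtron-like and 0 of 4 outside genes, beside 24.2% higher and 14.1% lower of all hairpins tested, and mir-6539 was not placed. These counts are small and nothing is read from them. Also called lower was mir-8101, chosen for mention after its values were seen. It lies in the 5′ UTR of the histone deacetylase gene Hdac5 and had 11 reads in each Ctrl library and 1 and 2 reads in the Ang OE libraries. It met the read minimum only through libraries other than those of Ang OE, so its call supports nothing.

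**Figure D4:**
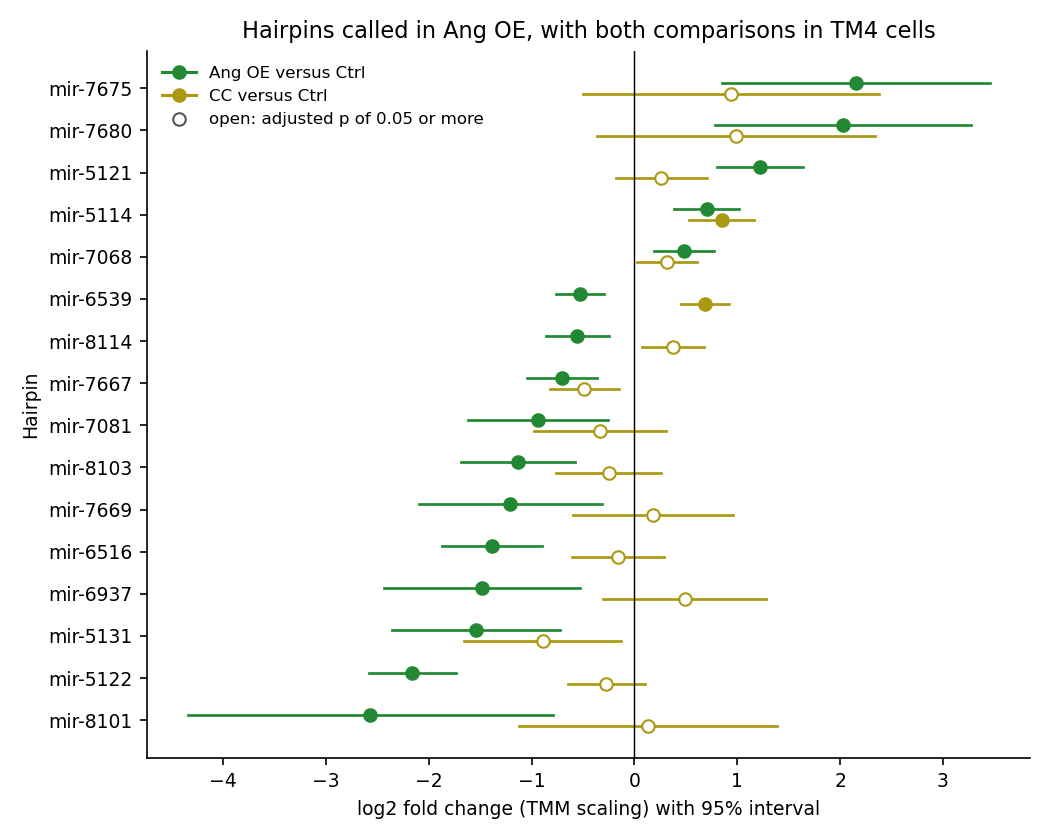
Log2 fold change with its 95% interval (horizontal axis, TMM scaling) of the 16 hairpins called in Ang OE (vertical axis), for Ang OE and for CC, each against the same 2 Ctrl libraries. Filled points passed the adjusted threshold, and mir-5114 and mir-6539 are the 2 that are filled in both, the latter at 0.69 in CC and −0.53 in Ang OE.

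The last comparison set sperm of CD mice beside non-treated TM4 cells, which differ in cell type, animal and culture at once. Of 90 members tested, 17 were higher and 43 lower in sperm (66.7% called), where 77.1% of 590 hairpins were called, 40.7% higher and 36.4% lower. The read minimum fixes much of this: 63 of the 90 met it in Ctrl alone and 6 in CD alone, so these could pass only by being high on one side. Of the other 21, with 10 reads in at least 1 library on each side, 11 were higher and 6 lower. The same count was not made over all hairpins, so nothing is read from it. The median log2 fold change was −1.39 for the members and −0.13 for all hairpins. Scaled by total miRNA reads, these medians were −2.71 and −1.47, and 13 members were higher and 68 lower. The fold changes given next thus lie above those read directly from CPM.

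The 5 members with the largest rise toward sperm, by the rule for named hairpins, were mir-6240, mir-8094, mir-5098, mir-5121 and mir-8111, and their groups did not overlap. mir-6240, outside genes at chr5:114990009-114990125, was at 5.37, 7.18 and 3.30 CPM in CD sperm and 0.178 and 0.140 in Ctrl, a log2 fold change of 6.32 ± 0.44 (SE, n = 3 and 2). With 5 reads in each Ctrl library it met the read minimum through sperm alone, so its direction was fixed by the minimum and the value is a description. mir-8094 overlaps a coding exon of the RNA helicase gene Ddx39b. It was at 3.58, 3.50 and 2.78 CPM against 0.0710 and 0.476 (4.81 ± 0.53, edgeR adjusted p = 3.89e-05), with a log2 fold change of 6.38 without Ctrl replicate 2 and 3.78 without Ctrl replicate 1.

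mir-5098 differed by 4.66 ± 0.34 on the log2 scale (adjusted p = 2.74e-06, and 4.06 without CD replicate 2), with Ctrl at 1.88 and 2.00 CPM. mir-5121, with Ctrl at 1.99 and 2.24 CPM, differed by 4.58 ± 0.25 (adjusted p = 5.21e-07). mir-8111, outside genes at chr8:84732257-84732393, was at 2.58, 3.33 and 2.25 CPM in CD and 0.462 and 0.448 in Ctrl (3.88 ± 0.31, adjusted p = 4.01e-06). In HFD sperm these hairpins were found too, for example at 6.45, 3.63 and 6 CPM for mir-6240 and 2.65, 2.46 and 3.04 for mir-8111.

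3 members were found in sperm alone. mir-7685, outside genes at chr2:158085424-158085485, had 19, 23 and 15 reads in CD, 31, 12 and 18 in HFD and 0 in all TM4 libraries. Set against the floor of 3 counts over the 6 TM4 libraries (0.0160 CPM), its level over the 6 sperm libraries (1.48 CPM) was at least 92.6-fold higher. mir-5107, with 9 to 26 reads per sperm library, was at least 88.7-fold higher, and mir-7019, at the 3′ end of an intron of the mitophagy kinase gene Pink1, with 7 to 18 reads, at least 55.7-fold higher. In the other direction 7 members had 0 reads in all sperm libraries: mir-6995, mir-7064, mir-7089, mir-7119, mir-7671, mir-7679 and mir-7680. Their TM4 levels, 0.250 to 0.542 CPM, were at least 6.65-fold to 14.4-fold above the sperm floor of 0.0376 CPM. Floors and counting intervals cover counting error only.

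mir-6539 differed most in absolute level, at 65 reads over the CD libraries and 19394 over the 2 Ctrl libraries, a log2 fold change of −6.16 ± 0.35 (edgeR adjusted p = 6.49e-07), and −6.99 without CD replicate 2. mir-8112 differed by −3.14 ± 0.23 (adjusted p = 2.4e-06). mir-6944, at −3.96 ± 0.30, and mir-7655 in an intron of Mllt10, at −3.34 ± 0.36, met the read minimum through Ctrl alone, so these values are a description. mir-7068 (−1.49 ± 0.36), mir-5122 (−1.46 ± 0.26) and mir-6516 (−0.998 ± 0.36) were called with smaller differences and adjusted p of 0.00502, 0.000798 and 0.0323, the last lost with DESeq2 and without CD replicate 1 or Ctrl replicate 1. mir-8114 was called higher in sperm (1.81 ± 0.22, adjusted p = 6.83e-05), but with total miRNA reads its log2 fold change was 0.50 and its adjusted p 0.111.

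Several hairpins that met the read minimum through Ctrl alone were nearly absent from CD sperm. mir-7081, in an intron of the DNA methyltransferase gene Dnmt1, had 1 read over the CD libraries and 160 over Ctrl, a ratio of CPM of 97.0 with an exact 95% counting interval of 17.2 to 3855. mir-6896 in Dst had 1 and 102 reads, a ratio of 61.8 (10.9 to 2466), and mir-6963 in the integrin gene Itga5 had 1 and 101, a ratio of 61.2 (10.7 to 2442). mir-8105, in the 5′ UTR of the chromatin remodeller gene Smarcc2, had 2 and 183, a ratio of 55.5 (15.1 to 461). These intervals overlap widely, so the order of the 4 is not resolved.

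**Figure D5:**
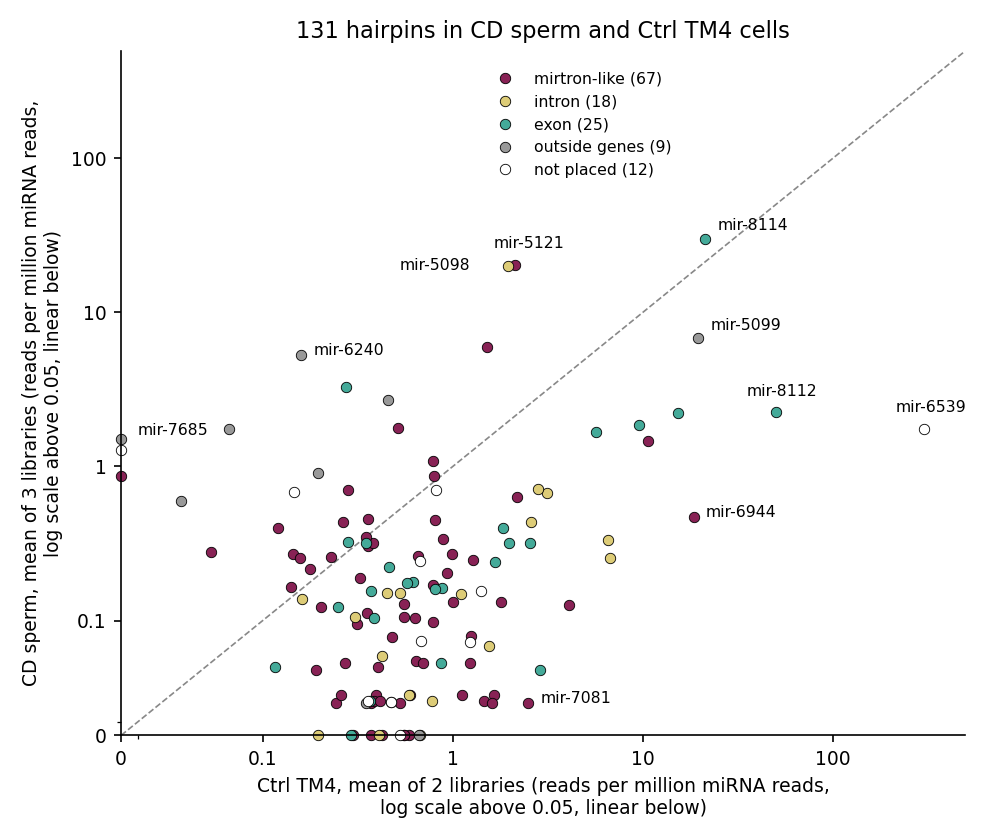
Mean level of each of the 131 hairpins in CD sperm (vertical axis, 3 libraries) against Ctrl TM4 cells (horizontal axis, 2 libraries), in CPM on axes that are logarithmic above 0.05 and linear below, coloured by place, with a dashed line of equal level. Most points lie below the line, mir-6539 farthest to the right, while mir-6240, mir-5121 and mir-5098 lie well above it and mir-7685 lies at 0 in Ctrl.

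2 members with the seed of a known family met the read minimum in 1 source alone, so their directions were fixed by it and the levels are a description. mir-6389, which shares the miR-130 seed and met it in TM4, was at 1.55 and 1.55 CPM in Ctrl and 0.0358 to 0.131 in CD sperm. mir-6413, with the miR-24-3p seed, met it in sperm and was at 1.75, 2.08 and 1.45 CPM in CD sperm and 0.0366 and 0.0961 in Ctrl. Both had reads divided with other small RNAs in the counts.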

How the data were processed

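Small RNA libraries of sperm and TM4 cells were prepared with a TruSeq kit. Per the labels and methods the authors trimmed the reads (FastQC 0.12.0 and Trimmomatic 0.40 are named in the submitters' processing notes), kept 15 to 45 nt and annotated them with SPORTS1.1, allowing 1 mismatch and matching rRNA and tRNA databases before miRNAs. The deposited values are estimated counts per hairpin, since the authors' run divided a read among the small RNAs it matched, with no normalization.

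Reads with and without a genome match were added with Python 3.11.15 (pandas 2.3.3, numpy 2.4.6, scipy 1.17.1) and divided by the library's miRNA reads. Hairpins that reached 10 reads in 3 sperm or 2 TM4 libraries (2 for CD against Ctrl) were tested on rounded counts by the edgeR 4.0.16 quasi-likelihood test in R 4.3.3, with TMM normalization and Benjamini-Hochberg adjustment over all hairpins tested. TM4 groups shared a model of 6 libraries. Standard errors are those of the fit, 95% intervals assume a normal distribution, and the counting intervals are Clopper-Pearson. The code was tested on simulated data. Figures were drawn with matplotlib 3.10.9. Hairpins were matched by name to RefSeq (GRCm38.p6) for sequences and to GENCODE on GRCm39 for coordinates, where all 109 hairpins with a sequence were identical. The place of some hairpins is not reported here.

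The text names the 12 members with the highest mean of group means, the 2 highest of each number range, up to 5 called members per comparison and direction with the largest change, no overlap and a mean of at least 20 reads, called ones among the 12, or the 3 smallest p where none was called. The members, the number ranges, the place classes and the marker lists were chosen with earlier results of these data known. The study's methods adjusted the cell line data for batch effects of sample preparation with Combat-seq, but the batches are not given in the sources used here, so none was adjusted. Alternatives were DESeq2 1.42.0, total miRNA reads or clean reads without rRNA as library size, no filter, genome-matched reads alone, other sets of groups in the model, a replicate block and each library left out.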

Additional observations from a re-analysis of the deposited data

How the results depend on the processing

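Over the 32 named fold changes and 372 refits, none changed direction, and 20 lost the adjusted threshold. Outside the diet comparison these hairpins were named because they were called in the same counts. Several also met the read minimum on one side alone. A change of direction was thus unlikely from the start, and the tally is a description. Members called between the diets stayed at 0 under every alternative run. Members called in CC were 2 of 123, 4 with the replicate block, and 1 to 4 with each library left out. In Ang OE they were 16 of 123 (204 of all 533), 10 with DESeq2 (196) and 25 with total miRNA reads as library size (220). They were 22 with the replicate block (222), and 11 to 15 with each library left out (160 to 176). DESeq2 gave no adjusted p there for 81 of the 123 members and 135 of the 533. In CD sperm against Ctrl they were 60 of 90 (455 of all 590), 37 with the replicate block over numbers 1 and 2 (408), 81 with total miRNA reads (536) or clean reads (541), and 44 to 66 with each library left out (420 to 486). With clean reads without rRNA as the denominator of CPM, the summed levels were 66.2 for CD and 75.1 for HFD, and 325, 450 and 223 for Ctrl, CC and Ang OE. Without mir-6539 the last 3 were 256, 282 and 178 CPM of miRNA reads. With each library left out, the sum ran from 117 to 144 CPM for CD, 136 to 155 for HFD, 551 to 568 for Ctrl, 766 to 773 for CC and 334 to 368 for Ang OE. Hairpins called over all tested were 22 in CC, 35 with the replicate block and 5 to 9 without CC replicate 1 or 2 or Ctrl replicate 1, and 0 between the diets and 12 with DESeq2. Replicate numbers showed no pairing of the sperm samples: same-numbered sperm libraries deviated together with r of −0.345, −0.239 and 0.0698 across 449 hairpins. The TM4 pairs had r between −0.0997 and 0.156 across 533. With 2 libraries per TM4 group the deviations mirror each other, so these r cannot decide whether the TM4 samples were paired. The hairpins share genes and are no independent replicates. The cause of the changes between settings was not tested. At 2 libraries per TM4 group and a median of 118 reads per member over 12 libraries, small changes of rare members were not detectable.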

Other observations

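A further 230 hairpins of the same number range had reads but missed the read minimum. Together they held 3542.75 reads over the 12 libraries, and 27 of them had at least 10 reads in exactly 1 library. The range thus held many more listed hairpins than the 131 described, most of them at a few reads. mir-6967-1 and mir-6967-2 are copies of one hairpin with the same counts, 1 rounded read each over the CD libraries and 30 over Ctrl, and cannot be told apart.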
